A study of Saccharomyces cerevisiae with 3 samples.

Results

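The 35 genes described here belong to the general stress programme of budding yeast, Saccharomyces cerevisiae, and to the storage of trehalose and glycogen. They were chosen by name as genes driven by the transcription factors Msn2 and Msn4 or working in trehalose and glycogen metabolism. All 35 were among the 5539 genes measured, with 70 spots between them. One of them, YJL144W, is listed in the array's annotation under its later name ROQ1 and was matched by its locus name.

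On each of 3 two-colour arrays, total RNA of a strain labelled as a YAP1 mutant, called a deletion mutant in the series title, was hybridised together with RNA of the wild type. Both strains had been exposed to 1.0 mM arsenite, the trivalent form of arsenic, for 1 h, so the arrays hold no unexposed cells and show no response to arsenite as such. YAP1 encodes a transcription factor that activates antioxidant and detoxification genes. The mutant RNA carried the dye Cy5 and the wild-type RNA the dye Cy3 on all 3 arrays, so an effect of dye cannot be told apart from one of genotype. Whether the 3 replicates were separate cultures is not stated, so a p-value here measures the spread among arrays, which may be technical. The sources used here name neither the strain background nor how the mutation was made.

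Stressed yeast cells raise a large common set of transcripts through Msn2 and Msn4, which enter the nucleus when protein kinase A activity drops. The set includes small chaperones, hydrophilins (very hydrophilic proteins made in drying or osmotically stressed cells) and the enzymes of trehalose and glycogen. Trehalose is a disaccharide that protects proteins and membranes, glycogen is the branched glucose store, and both are built from UDP-glucose.

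Values are log2 ratios, most likely of mutant over wild type since the table does not state a direction, so that a negative value means less RNA in the mutant. Every direction and rank below rests on that reading and would turn with it. A ratio is the mean of a gene's duplicate spots after a loess curve of ratio on spot brightness had been subtracted. Errors are standard errors of limma's fit (n = 3 arrays), and a gene was called when its Benjamini-Hochberg adjusted p over all 5539 genes was under 0.05. Since RNA came from whole cultures, fewer cells expressing a gene and less RNA per cell cannot be told apart.

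YAP1 itself had ratios of -0.31, -1.23 and -1.06 on arrays 1 to 3. It was lower on all 3, with a mean of -0.87 ± 0.18 that missed the threshold (limma, adjusted p = 0.0509). The sources used here do not place its probe relative to the mutation. The 3 arrays correlated at 0.532 to 0.692 across genes, which are not independent replicates.

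After the correction for brightness, most of the stress genes were close to equal in mutant and wild type. Of the 35 genes, YGP1 fell, GRE1 and OM45 passed as higher, and 32 were not called. Over all genes 2.11% were called lower, 0.487% higher and 2.60% in either direction. With median centring in place of that correction, 11 of the 35 were called lower and 0 higher, against 17.8% and 4.28% of all genes. The median of the 35 was then -0.34. After the correction the 35 genes had a median of 0.07, against -0.01 for all genes tested, and 21 had a mean under 0.2 in size. The 95% interval lay within 2-fold for 32 of the 35, or 91.4%, against 96.1% of all genes. It lay within 1.5-fold for 21 of the 35, against 3842 of all 5539 genes. At an unadjusted p under 0.05, 6 genes were lower and 7 higher, 37.1% of the 35, against 19.3% of all genes. The calls of GRE1 and OM45 both depended on the correction for brightness, and that of OM45 also on how brightness was reconstructed, as described with each gene. With limma's unmoderated statistic none of the 35 passed, as none of the 5539 did, although 5 of the 35 had an unadjusted p under 0.05.

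**Figure D1:**
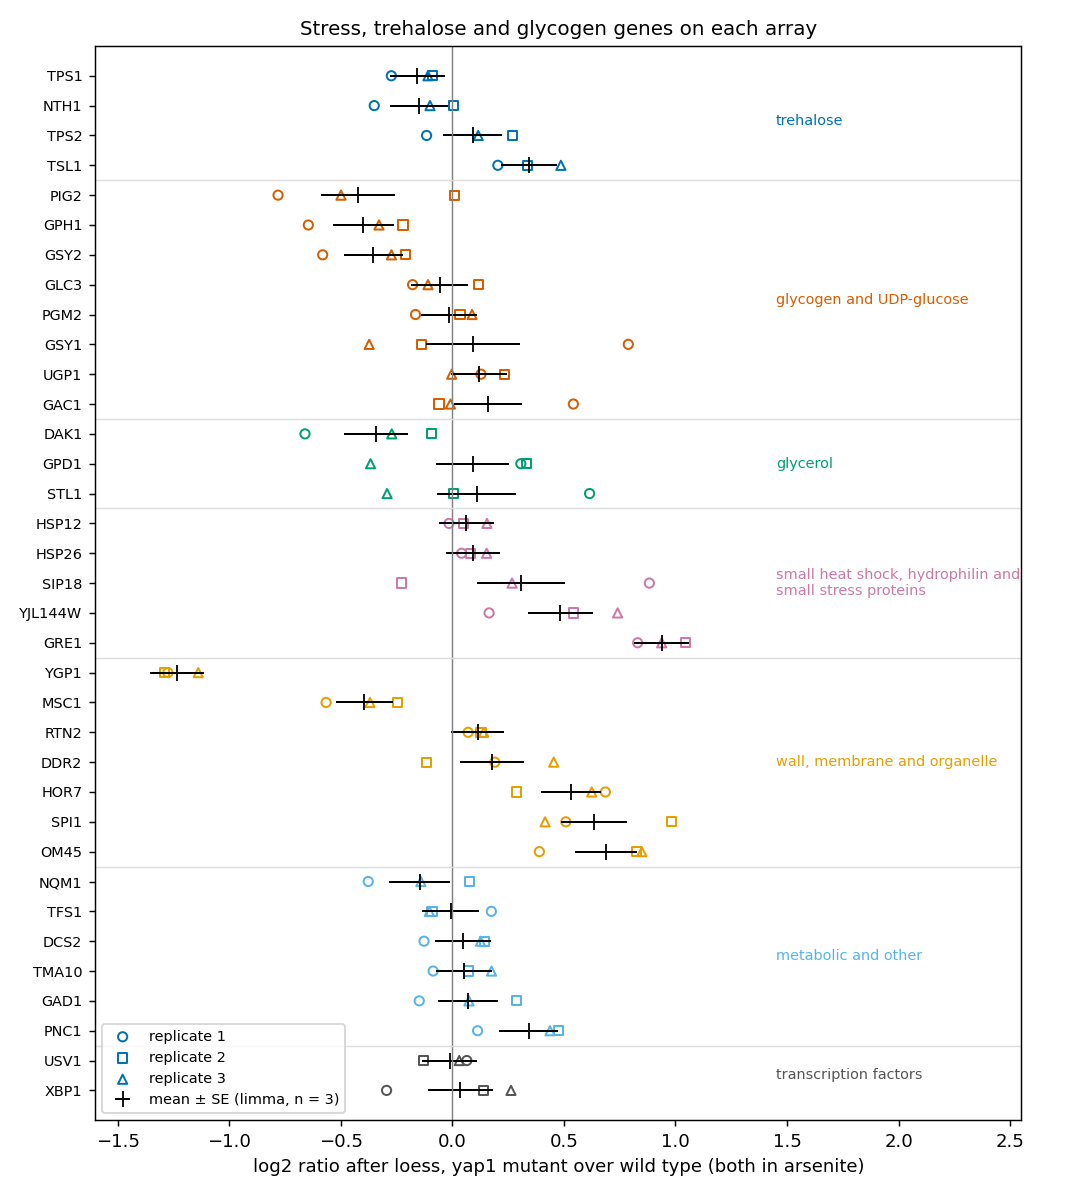
Log2 ratio of each of the 35 genes on each array (symbols) after loess, mutant over wild type, with the mean and standard error of limma's fit (n = 3), ordered by role. YGP1 stands apart on the low side at -1.27, -1.29 and -1.14, and GRE1 is the highest at 0.83, 1.04 and 0.94.

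Trehalose genes showed no called difference. TPS1, the trehalose-6-phosphate synthase, had ratios of -0.27, -0.09 and -0.11, a mean of -0.16 ± 0.12. It was slightly low on every array, within the spread that all genes showed. TPS2, the phosphatase that completes synthesis, averaged 0.09 ± 0.13, and NTH1, the neutral trehalase that breaks the sugar down, averaged -0.15 ± 0.13. TSL1, a large subunit of the synthase complex, was the highest of the 4, with 0.20, 0.34 and 0.49 and a mean of 0.34 ± 0.13 (limma, adjusted p = 0.199). All 3 of its arrays were above 0, and its 95% interval ran from 0.05 to 0.63. TSL1 averaged -0.21 after median centring and was not called there (limma, adjusted p = 0.381). The 3 other genes of the pathway, the synthase subunit TPS3 and the trehalases NTH2 and ATH1, were not called either, with means between -0.33 for NTH2 and 0.03 for ATH1. The 7 trehalose genes thus had 0 calls by limma, against 2.60% of all genes, and a median of -0.15. An unadjusted p under 0.05 was found for 2 of the 7, or 28.6%, against 19.3% of all genes. By the unmoderated test 0 of the 7 had such a p. After median centring 3 of the 7 were called lower and 0 higher, against 17.8% and 4.28% of all genes. The 3 were TPS1 at -0.67, NTH1 at -0.58 and TPS3 at -0.58.

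Glycogen genes had 0 calls among 8 members by limma, against 2.60% of all genes. At an unadjusted p under 0.05, 3 of the 8 were lower, against 637 of all 5539 genes, and 0 were higher. In either direction this was 37.5% of the 8, against 19.3% of all genes. By the unmoderated test 0 of the 8 had such a p. The 3 on the low side act at both ends of glycogen turnover. PIG2, a putative targeting subunit of the Glc7 phosphatase, had ratios of -0.78, 0.01 and -0.50. GPH1, the phosphorylase that releases glucose from glycogen, had -0.65, -0.22 and -0.33. GSY2, the main glycogen synthase, had -0.58, -0.21 and -0.27. The first array was the lowest for all 3, and PIG2 was level on the second. Their means were -0.42 ± 0.16 for PIG2, -0.40 ± 0.13 for GPH1 and -0.35 ± 0.13 for GSY2, with adjusted p-values of 0.211, 0.171 and 0.2002 (limma).

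The second synthase gene GSY1 was the most scattered member, with 0.79, -0.14 and -0.37, and its sign differed between arrays. The branching enzyme gene GLC3 averaged -0.06 ± 0.13. PGM2, the phosphoglucomutase, averaged -0.01 ± 0.13, and UGP1, which makes UDP-glucose for both stores, averaged 0.12 ± 0.12. GAC1, another targeting subunit of Glc7, was the highest at 0.16 ± 0.15 and had its only positive value, 0.54, on the first array. Of the 13 other glycogen genes listed, none was called and 1, or 7.69%, had an unadjusted p under 0.05, against 19.3% of all genes. That gene was GDB1, the debranching enzyme, at -0.35, -0.29 and -0.35, a mean of -0.33 ± 0.12 (limma, adjusted p = 0.195). All 21 glycogen genes together had a median of -0.01. After median centring 4 of the 21 were called lower and 0 higher, against 17.8% and 4.28% of all genes. GSY2 was among the 4, at -0.60 (limma, adjusted p = 0.0033).

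Glycerol is the osmolyte that yeast accumulates in osmotic stress. GPD1, the glycerol-3-phosphate dehydrogenase that leads into its synthesis, had ratios of 0.31, 0.33 and -0.37. STL1, a glycerol importer, had 0.62, 0.00 and -0.29. Both changed sign between arrays, and their means were 0.09 ± 0.16 and 0.11 ± 0.18. DAK1, a dihydroxyacetone kinase, was low on all 3 arrays with -0.66, -0.09 and -0.27, and its mean of -0.34 ± 0.15 was not called (limma, adjusted p = 0.2502). Among the 12 other glycerol and osmotic genes none was called, against 2.60% of all genes. Of these 12, 2 had an unadjusted p under 0.05, or 16.7%, against 19.3% of all genes, and both were on the high side. GPP1, a glycerol-3-phosphatase, averaged 0.40 ± 0.14 and GUT1, the glycerol kinase, 0.43 ± 0.13. FPS1, the aquaglyceroporin that lets both glycerol and arsenite through the membrane, averaged -0.09 ± 0.13. After median centring 4 of all 15 genes of this list were called lower and 0 higher, against 17.8% and 4.28% of all genes. DAK1 was among the 4, at -0.69.

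GRE1 was the highest of the 35 and the 12th highest of all genes. GRE1 encodes a hydrophilin. Its ratios were 0.83, 1.04 and 0.94, all 3 above 0 and close together. The mean of 0.94 ± 0.12 is a 1.92-fold higher level in the mutant (limma, adjusted p = 0.0052). This height rested on the correction for brightness. On the deposited scale, which is not centred, GRE1 had -0.16, -0.21 and -0.45, against a median of -0.66 over all genes. After median centring alone it averaged 0.37 and was not called (limma, adjusted p = 0.0981).

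The other small stress proteins were not called. HSP12, a small membrane-associated stress protein, had -0.01, 0.05 and 0.16, and the small heat shock protein gene HSP26 had 0.04, 0.08 and 0.15. Both lay within 0.16 of 0 on every array, and their 95% intervals ended at 0.34 and 0.37. They were also among the brightest spots of the arrays, at the 99.2 and 99.4 percentiles of signal. YJL144W, a hydrophilin gene, had 0.17, 0.54 and 0.74, a mean of 0.48 ± 0.15 (limma, adjusted p = 0.137). It was above 0 on all 3 arrays, with the first the lowest. SIP18, a phospholipid-binding hydrophilin, had 0.88, -0.23 and 0.27 and so no common sign. Of the 3 further genes of the desiccation list, NOP6 had 0.53, 0.48 and 0.76 with a mean of 0.59 ± 0.13 that narrowly missed the threshold (limma, adjusted p = 0.0546). TIP1, a cell wall mannoprotein, averaged 0.39 ± 0.15, and STF2, a hydrophilin, averaged 0.07 ± 0.13. The 7 measured genes of this list had a median of 0.39, with GRE1 the only one called, against 0.487% of all genes called higher. Of the 7, 4 had an unadjusted p under 0.05, or 57.1%, against 19.3% of all genes. After median centring that median was 0.18. By limma 1 of the 7, HSP12, was then called lower and 0 higher, against 17.8% and 4.28% of all genes.

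YGP1 was the lowest of the 35 and the 58th lowest of all genes. It encodes a secreted cell wall glycoprotein that is made when nutrients run short. Its ratios were -1.27, -1.29 and -1.14, with no overlap with any other member on any array. The mean of -1.23 ± 0.12 corresponds to a level 2.35 times lower in the mutant (limma, adjusted p = 9.85e-04). The reconstructed signals were 2148, 1910 and 1319 units in the mutant channel, against 10353, 10902 and 7435 units in the wild-type channel. Of the 35 genes YGP1 alone was called in the same direction after loess, after median centring and on the deposited scale, with -1.79 after median centring and -2.43 on the deposited scale.

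The other genes of the cell wall, membranes and organelles lay on both sides of 0. OM45, which encodes a protein of the mitochondrial outer membrane, had 0.39, 0.83 and 0.85. All 3 were above 0, and the mean of 0.69 ± 0.14 just passed (limma, adjusted p = 0.0439). Under the 4 other reconstructions of spot brightness that were tried, OM45 averaged 0.44 to 0.53 with adjusted p-values from 0.0773 to 0.383, and was not called. The reconstruction used here was adopted after OM45's brightness had been seen to jump between arrays under an earlier one, so its call is no independent evidence. After median centring OM45 averaged 0.09 (limma, adjusted p = 0.737). Its call was also lost with print-block medians, with normexp, with a loess span of 0.5, and without array 2 or array 3.

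SPI1, a cell wall protein anchored by a lipid, had 0.51, 0.98 and 0.42. It was high on every array, and its mean of 0.64 ± 0.15 was not called (limma, adjusted p = 0.0709). HOR7, a small protein gene induced by osmotic stress, had 0.69, 0.29 and 0.62, a mean of 0.53 ± 0.13 (limma, adjusted p = 0.0907). All arrays were again above 0. SPI1 passed as higher under 5 of the alternatives and HOR7 under 3. Median centring was not among these: there SPI1 averaged 0.02 and HOR7 -0.07 (limma, adjusted p = 0.947 and 0.779). On the deposited scale they averaged -0.62 and -0.71. MSC1, a gene of poorly known function, had -0.57, -0.25 and -0.37 with a mean of -0.39 ± 0.13 (limma, adjusted p = 0.158). It averaged -0.98 after median centring and was called lower there (limma, adjusted p = 1.71e-07). The DNA damage and stress gene DDR2 averaged 0.18 ± 0.14, and RTN2, a reticulon-like protein of the endoplasmic reticulum, averaged 0.11 ± 0.12.

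The 6 metabolic and other stress proteins had 0 calls by limma, against 2.60% of all genes. An unadjusted p under 0.05 was found for 1 of the 6, or 16.7%, against 19.3% of all genes. That gene was PNC1, the nicotinamidase that recycles nicotinamide, with 0.11, 0.48 and 0.44. It was above 0 on all 3 arrays, with a mean of 0.34 ± 0.13 (limma, adjusted p = 0.209). PNC1 averaged -0.27 after median centring and was not called there (limma, adjusted p = 0.246). NQM1, a transaldolase-like gene, was the lowest of the 6 at -0.15 ± 0.14. The carboxypeptidase Y inhibitor gene TFS1, the decapping-related gene DCS2, the glutamate decarboxylase gene GAD1 and the ribosome-associated TMA10 lay between -0.01 and 0.07. The transcription factor genes USV1 and XBP1 averaged -0.01 ± 0.12 and 0.04 ± 0.15, and neither had 1 sign on all arrays.

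The regulators above these genes were not called either. MSN2 averaged -0.18 ± 0.13. MSN4 was above 0 on every array, with 0.44, 0.50 and 0.32 and a mean of 0.42 ± 0.12 (limma, adjusted p = 0.130). HOG1, the kinase of the osmotic stress pathway, averaged -0.11 ± 0.13. Of 35 measured regulators, USV1 and XBP1 included, 0 passed by limma, against 2.60% of all genes, and the median was -0.05. An unadjusted p under 0.05 was found for 6 of them, or 17.1%, against 19.3% of all genes. After median centring 6 of these 35 regulators were called lower and 0 higher, against 17.8% and 4.28% of all genes. After loess the extremes of the regulators were SSK2, a kinase that acts above Hog1, at -0.53 ± 0.14, and the phosphatase gene PSR1 at 0.51 ± 0.16.

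A further 45 genes listed as Msn2/Msn4 targets, none of them among the 35, held 8 called lower and 1 called higher, against 2.11% and 0.487% of all genes, with a median of -0.09. After median centring 26 of the 45 were called lower and 0 higher, against 17.8% and 4.28% of all genes. TRX2, a thioredoxin, had the lowest mean at -2.26 ± 0.20, followed by the aldehyde dehydrogenase gene ALD3 at -1.76 ± 0.13. The glutaredoxin gene GRX2 (-1.41 ± 0.20), mitochondrial superoxide dismutase gene SOD2 (-1.29 ± 0.14) and mitochondrial peroxiredoxin gene PRX1 (-1.26 ± 0.13) fell too. These redox genes sit on the list beside HSP30 (-0.96 ± 0.13), a plasma membrane stress protein, RCR2 (-0.77 ± 0.16), a vacuolar protein, and the stress gene DDR48 (-0.65 ± 0.12). TDH1, a glyceraldehyde-3-phosphate dehydrogenase, was the one called higher at 0.80 ± 0.12. It averaged 0.14 after median centring (limma, adjusted p = 0.565), and its call was also lost with print-block medians, with normexp and without array 2. Their adjusted p-values ran from 2.27e-04 for ALD3 to 0.0433 for RCR2 (limma). CTT1, the cytosolic catalase that is a standard Msn2/Msn4 target, averaged 0.01 ± 0.14. It averaged -0.58 after median centring and was called lower there (limma, adjusted p = 0.0044). This list contains genes that are also known targets of Yap1, and it was drawn up with earlier results of these arrays known.

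**Figure D2:**
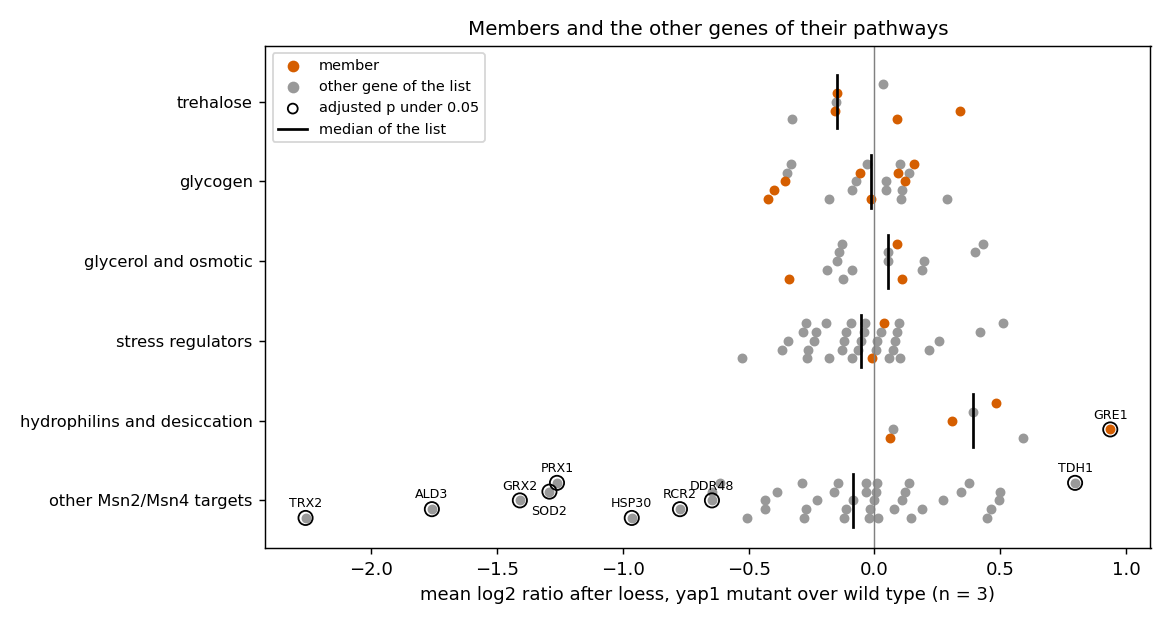
Mean log2 ratio after loess (x axis, mutant over wild type, n = 3) of the members and the other genes of 6 lists, with rings at an adjusted p under 0.05 and a bar at each list's median. Called genes lie in 2 lists, GRE1 among the hydrophilins and 9 genes among the other Msn2/Msn4 targets.

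The arrays agreed on these genes about as well as on all genes. Of the 35, 9 were above 0 and 6 below 0 on all 3 arrays, together 42.9%, against 43.8% of all genes. The median SD between arrays was 0.199 for the 35 and 0.204 for all genes. Duplicate spots lay within 0.25 of each other for all 35 genes on all 3 arrays. The median gap between duplicates was 0.070, 0.062 and 0.059 for the 35 on arrays 1 to 3. For all genes it was 0.078, 0.057 and 0.075. The widest SDs were those of GSY1 at 0.61, SIP18 at 0.56 and STL1 at 0.46. All 3 were highest on the first array, and they were among the dimmer of the 35 genes, at the 68.3, 56.8 and 36.7 percentiles of signal. YGP1 and GRE1 had SDs of 0.08 and 0.11.

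The level of these genes moved with the treatment of spot brightness. The deposited ratios ran lower in bright spots: on arrays 1 to 3 their median was -1.10, -1.19 and -1.33 in the brightest 10% and 0.02, -0.65 and -0.33 in the dimmest 10%. The stress genes were bright, with 21 of the 35 above the 90th percentile of signal and 27 above the 75th. Without loess, after median centring only, 11 of the 35 were called lower and 0 higher, against 17.8% and 4.28% of all genes, or 22.0% in either direction. Those 11 included HSP12 at -0.56, HSP26 at -0.54, TPS1 at -0.67, NTH1 at -0.58, GSY2 at -0.60 and MSC1 at -0.98. Their median after median centring, over all 35, was -0.34. For the 21 brightest it was -0.37, against -0.58 for all 554 genes above the 90th percentile. After loess these medians were 0.09 for the 21 and -0.08 for the 554. Whether the lower ratios of bright spots came from the dyes, the scans or the strains was not tested.

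**Figure D3:**
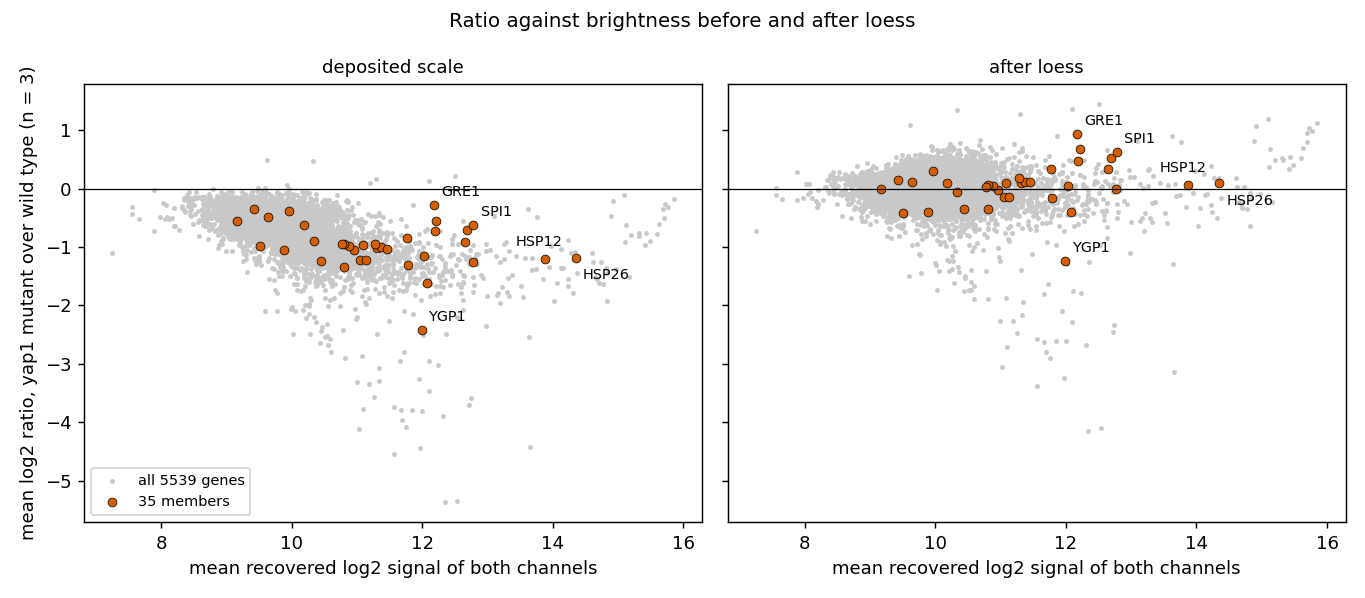
Mean log2 ratio (y axis, mutant over wild type, n = 3) against mean reconstructed log2 signal of both channels (x axis) on the deposited scale (left) and after loess (right), with the 35 genes in orange and all 5539 in grey. On the left the bright genes sink together, HSP12 to -1.20 and HSP26 to -1.18, and after loess both lie near 0 while YGP1 stays low.

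**Figure D4:**
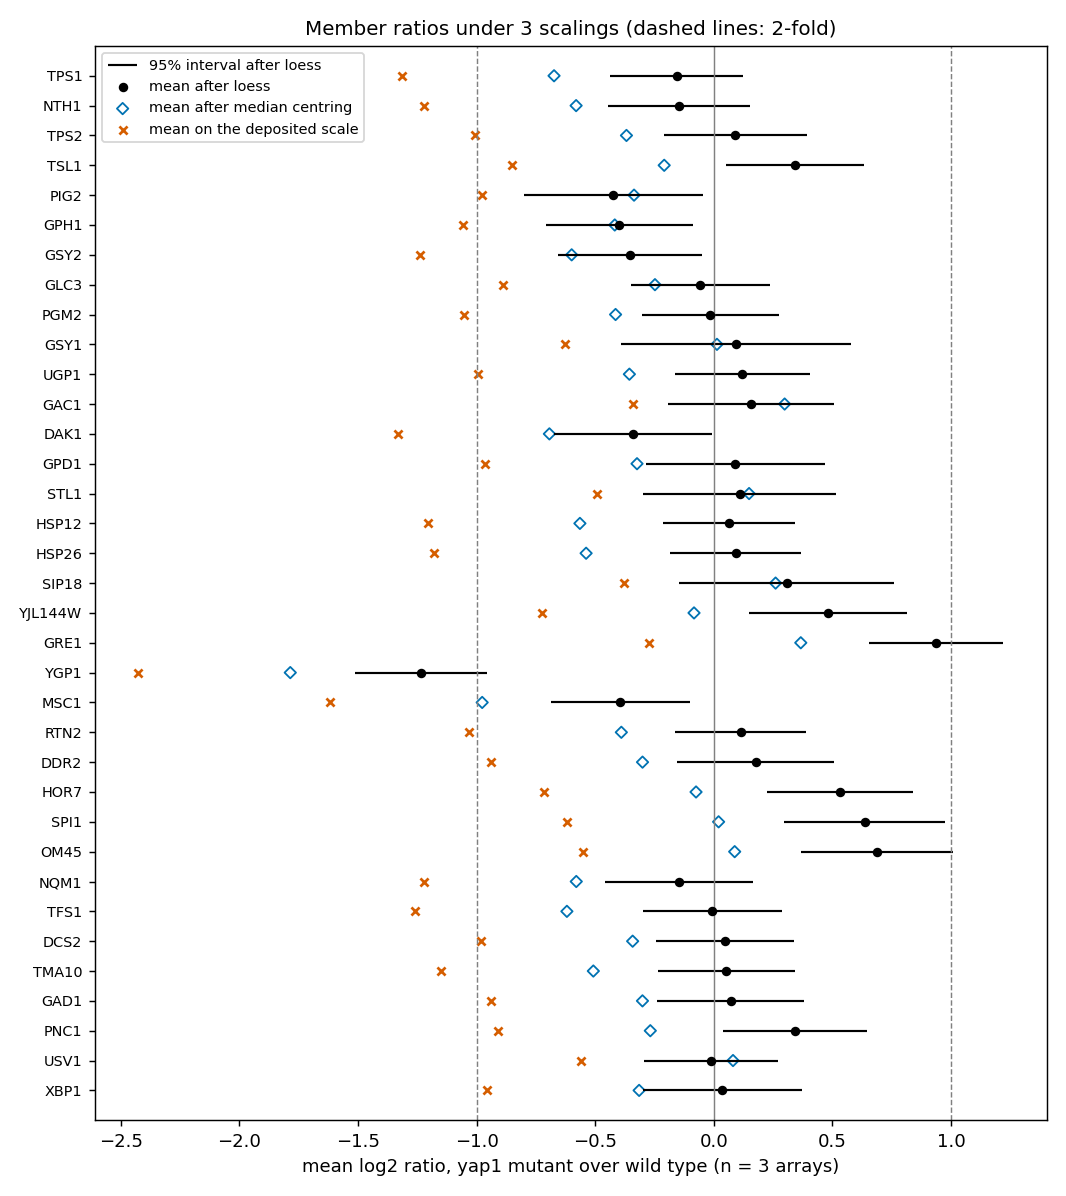
Mean log2 ratio of each of the 35 genes (x axis, mutant over wild type, n = 3) after loess with its 95% interval, after median centring and on the deposited scale. YGP1 is below -1 under all 3, and GRE1 is at 0.94, 0.37 and -0.27.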

How the data were processed

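The authors deposited 1 log2 ratio per spot, 13056 spots on each of 3 arrays. The base follows from the values: 2 raised to each deposited log2 ratio was a ratio of whole numbers for 100% of spots (relative tolerance 1e-13), while bases e and 10 gave at most 0.214%. For scanner, background handling, normalization and direction of the ratio: not given in the sources used here. Mutant over wild type is likely from the order of the titles, the dyes and the lower YAP1 ratios.

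Both channel signals were reconstructed up to a common factor, settled with the duplicate spots and the same pair on the other arrays. This was the last of 5 rules tried. Gene calls had been seen under each of the earlier 4, which are kept as alternatives chosen after seeing the data. Under the last rule the signal of 2.65% of pairs differed by over 2 log2 between arrays, against 2.18% to 16.0% under the others. That rule itself favours agreement between arrays, so this share does not measure its accuracy. All rules and the test were also tested on simulated data.

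A loess curve (span 0.3) was subtracted within each array, duplicate spots were averaged, and each gene's mean was tested against 0, two-sided, with limma 3.58.1 in R 4.3.3. Of the spots, 11138 were annotated with 1 gene, and 1918 were not annotated with a single gene and entered no gene's mean. Of the 5539 genes, 5534 matched a RefSeq table (R64). Members and lists were chosen with earlier results of these data known. Named are all 35 members, called list genes and YAP1; other list genes were named after their values were seen. RMF1, YBR085C-A and promoter sequences were not analysed here. Precision is limited by the number of arrays. The alternatives covered scaling, background, loess span, print blocks, spots, dim genes, the variance model, thresholds and each array left out. Python 3.11.15, numpy 2.4.6, pandas 2.3.3 and matplotlib 3.10.9 were used.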

Additional observations from a re-analysis of the deposited data

How the results depend on the processing

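Of the 35 genes, YGP1 was called lower under every alternative except the unmoderated statistic, and GRE1 was called higher under all except that statistic, median centring and the deposited scale. Counts follow as lower and higher for all genes (117 and 27 in the report), for the 35 genes (1 and 2) and for all pathway lists together (8 and 2).

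Median centring gave 984 and 237, 11 and 0, and 44 and 0, and the deposited scale 4191 and 1, 32 and 0, and 117 and 0. The median of the 35 genes was -0.34 and -0.98 under these, against 0.07. The unmoderated statistic gave 0 and 0 in each, with 534 of all genes and 5 of the 35 at an unadjusted p under 0.05. An adjusted p under 0.01 left 61 and 10 of all genes, 1 higher of the 35 and 1 higher in the lists. Normexp gave 185 and 50 for all genes, 1 higher of the 35 and 1 higher in the lists. Quantile normalization gave 243 and 104, with 5 higher in the lists and a median of 0.094, and scaling arrays to one spread gave 219 and 83. Spots as technical replicates gave 193 and 63, with 4 higher of the 35 and 6 in the lists. Leaving out dim genes gave 42 higher. Print-block medians gave 1 higher of the 35, 1 in the lists and a median of 0.037, and a loess span of 0.5 gave 1 higher of the 35.

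The signal was reconstructed by 5 rules, and calls had been seen under each before the last was adopted. All genes called numbered 241 and 127 when 6 spots were settled at once, 85 and 15 within each array without a brightness weight, 86 and 15 within each array, and 90 and 18 over 3 arrays with 3 degrees of freedom. YGP1 and GRE1 were called under all 5, SPI1 only with 6 spots at once, where OM45 was not, and OM45 only under the last. The within-array rules and that with 3 degrees of freedom thus called 1 higher of the 35. With 6 spots at once the lists had 13 and 5 and the median was 0.032.

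Leaving out each array in turn gave 98 to 203 lower and 21 to 72 higher of all genes, 1 to 5 higher of the 35, 1 to 7 higher in the lists and a median of 0.042 to 0.061. OM45 was not called without array 2 (0.62) or array 3 (0.61), and SPI1 was called without array 1 or array 3. Without array 1, YJL144W and PNC1 were called higher too.

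All 22 of the 35 genes above 0 after loess were below 0 on the deposited scale. Of the turned signs, those of genes called on at least 1 of the scales compared were GRE1 (-0.27), OM45 (-0.55), SPI1 (-0.62), HOR7 (-0.71), YJL144W (-0.72), HSP12 (-1.20), HSP26 (-1.18), DDR2 (-0.94), TPS2 (-1.01), TSL1 (-0.85), GSY1 (-0.63), UGP1 (-0.996), RTN2 (-1.03), PNC1 (-0.91), DCS2 (-0.98), GAD1 (-0.94), GPD1 (-0.96), STL1 (-0.49), TMA10 (-1.15), XBP1 (-0.95) and TDH1 (-0.50). After median centring 16 of the 35 signs turned, and of these HSP12 (-0.56), HSP26 (-0.54) and TMA10 (-0.51) were called. The deposited scale is not centred, as its median over all genes of -0.66 shows; for the other changes the cause was not tested. No paired analysis was possible because the samples form 1 group and each ratio already pairs mutant and wild type on an array. Brightness is known only through the reconstruction, which limits every value after loess.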
